A study of Mus musculus with 15 samples.

Results

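New splice isoforms of known genes were the transcripts assembled from the reads that had several exons, shared at least 1 splice junction with an annotated gene and matched none of its annotated transcripts as a whole. StringTie's comparison with the annotation marks them with class code j, and all 18455 transcripts with that code were taken. They were 18455 of 129029 transcripts listed, beside 92870 annotated transcripts and 17704 assembled transcripts of other classes. They lay in 6688 genes, where a gene is 1 symbol on 1 chromosome and strand. The samples were kidney tissue of 15 male C57BL/6 mice (C57BL/6J in the study's methods), 5 at 3 months, 5 at 12 months and 5 at 24 months of age, with no genotype or drug that differed between them. The methods describe a kidney divided into pieces after urethane anaesthesia, and which part of it was sequenced was not given in the sources used here. All were housed at 25°C on standard chow and tap water, and each library came from a separate mouse. The labels describe removal of ribosomal RNA and stranded total RNA libraries, whereas the study's methods describe selection of polyadenylated RNA. Sequencing depth, estimated in each mouse from the median ratio of coverage to FPKM (explained below), ran from 5.03 to 8.03 Gb. The mice of 3 months had the lowest mean, with 5.03 to 6.13 Gb. Those of 12 months had 5.84 to 8.03 Gb and those of 24 months 6.07 to 7.33 Gb, so the ranges overlapped.

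Splicing joins the exons of a primary transcript, and 1 gene can give several messenger RNAs by leaving out an exon, keeping an intron, moving a splice site or starting and ending elsewhere. Such isoforms can encode other proteins or carry other untranslated ends, and in the kidney the sodium transporters of the tubule are known to have isoforms placed in different segments. An assembler infers isoforms from short reads. It divides the reads that several isoforms share among them, so the level of an isoform is an estimate even where the level of its gene is well measured. The level used here is FPKM, mapped fragments scaled to transcript length and library size. The share of an isoform is its FPKM as a percent of the summed FPKM of all listed transcripts of its gene in the same mouse.

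The tissue carried its defining markers. Umod of the thick limb lay between 689 and 999 FPKM in all 15 mice, and Slc34a1 of the proximal tubule between 716 and 1155. In such tissue, fewer cells of a type and less RNA per cell cannot be told apart. The 6 B and plasma cell markers summed to 2.81 to 12.1 FPKM at 3 months, 20.1 to 123 at 12 months and 17.2 to 58.4 at 24 months. The 4 T cell markers summed to 0.655 to 2.42, 2.40 to 3.44 and 1.40 to 4.23 FPKM at the 3 ages. The 3 adrenal cortex markers summed to 1.05 to 1.75, 1.73 to 2.34 and 1.89 to 3.24 FPKM, so the mice of 24 months lay above those of 3 months without overlap. Nearly all of that sum was Star, the steroidogenic cholesterol carrier, since Cyp11b1 did not exceed 0.0107 and Cyp21a1 0.0401 in any mouse. The part of such tissue in the results was not tested. Over the 15 mice the 4 macrophage markers summed to 11 to 29.6 FPKM, the 3 adipocyte markers to 0 to 4.72 and the 2 blood globin genes to 168 to 792, with overlap between the ages, and none of the adipocyte, adrenal, T cell or globin genes had a new isoform at a mean of at least 1 FPKM.

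The simplest new isoforms differed from an annotated transcript by 1 exon. The following exons are shown because each was missing from a new isoform of a gene described below, or from an abundant new isoform of this kind. The set is not complete by abundance. The isoforms of Kif1b (16.03 FPKM) and Slc6a6 (11.82 FPKM) were more abundant than those of Clstn1 and Ugt3a1 and are not shown. Capitals mark the exon that is missing and lower case the 15 bases of the neighbouring exons that the new isoform joins, on the coding strand and from the transcripts of GENCODE M21 on GRCm38. Which exon was missing was inferred from the number of exons and the summed intron length, since no exon coordinates of the new isoforms were used here.
Ugt3a2: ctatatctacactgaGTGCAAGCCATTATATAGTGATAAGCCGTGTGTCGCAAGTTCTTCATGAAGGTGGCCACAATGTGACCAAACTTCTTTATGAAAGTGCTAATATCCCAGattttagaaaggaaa
Clstn1: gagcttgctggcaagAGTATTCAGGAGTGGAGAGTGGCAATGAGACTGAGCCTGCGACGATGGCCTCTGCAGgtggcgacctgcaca
Usp34: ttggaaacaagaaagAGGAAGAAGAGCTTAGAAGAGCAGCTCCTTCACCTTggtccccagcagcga
Ptprk: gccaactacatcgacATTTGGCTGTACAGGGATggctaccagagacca
Papss2: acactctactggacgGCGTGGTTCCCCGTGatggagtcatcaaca
Idh3g: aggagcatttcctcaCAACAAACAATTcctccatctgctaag
Ugt3a1: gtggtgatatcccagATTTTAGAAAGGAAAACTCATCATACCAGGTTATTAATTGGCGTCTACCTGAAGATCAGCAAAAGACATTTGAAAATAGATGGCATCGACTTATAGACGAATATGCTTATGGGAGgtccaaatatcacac
The exon of Ugt3a2, a UDP-glycosyltransferase, is exon 2 of 7 (chr15:9338646-9338744, plus strand). The exon of Clstn1, the cargo adaptor calsyntenin, is exon 10 of 18 (chr4:149641658-149641714, plus strand), and that of Usp34, a deubiquitinase, exon 13 of 80 (chr11:23362577-23362612, plus strand). The exon of Ptprk, a receptor tyrosine phosphatase, is exon 19 of 31 (chr10:28570174-28570191, plus strand). The exon of Papss2, which makes the sulfate donor PAPS, is exon 8 of 13 (chr19:32646329-32646343, plus strand), and that of Idh3g, a subunit of mitochondrial isocitrate dehydrogenase, exon 3 of 13 (chrX:73782298-73782309, minus strand). These 6 coding exons were 99, 57, 36, 18, 15 and 12 bases long, all multiples of 3, so leaving one out keeps the reading frame. The exon of Ugt3a1, the neighbouring UDP-glycosyltransferase, is exon 3 of 7 (chr15:9291976-9292090, plus strand), and its 115 bases are no multiple of 3. The isoform without the exon had a mean of 196 FPKM in Ugt3a2, 44.1% of the gene, and 9.79 FPKM in Clstn1, 63.0% of the gene. In Usp34 it had 12.7 FPKM and 44.3%, in Papss2 15.8 FPKM and 21.8%, in Idh3g 14.0 FPKM and 12.8%, and in Ugt3a1 9.73 FPKM and 10.9%. Over all 239 new isoforms with 1 internal exon missing the length of the exon was a multiple of 3 in 114, which is 47.7%. Among the 78409 annotated internal exons of the genes with a new isoform it was 39.5%.

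A second group of new isoforms began at another place than the annotated transcripts. The stretches below lie upstream of the new isoforms MSTRG.17691.4 of Slc22a8, the organic anion transporter OAT3, and MSTRG.13229.1 of Aqp6, a water and anion channel of intercalated cells. They are shown because both isoforms began within 100 bases of a RefSeq start and of no annotated start listed, and they end at the base before the new isoform. Capitals mark the letters TATAA on the shown strand.
Slc22a8: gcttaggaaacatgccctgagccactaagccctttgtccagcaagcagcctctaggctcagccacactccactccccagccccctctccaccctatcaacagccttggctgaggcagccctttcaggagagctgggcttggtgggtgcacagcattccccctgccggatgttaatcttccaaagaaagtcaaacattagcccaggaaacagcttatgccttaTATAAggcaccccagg
Aqp6: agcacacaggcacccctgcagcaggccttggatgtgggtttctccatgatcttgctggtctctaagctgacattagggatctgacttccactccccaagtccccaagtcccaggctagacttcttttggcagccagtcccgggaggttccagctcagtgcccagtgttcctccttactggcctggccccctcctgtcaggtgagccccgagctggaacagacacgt
The first is chr19:8592932-8593169 (GRCm38.p6, plus strand), which ends 12 bases before the RefSeq start of Slc22a8 and 1916 bases past the first annotated start listed. The TATAA lay 28 bases before the RefSeq start. The second is chr15:99600950-99601175 (plus strand), 24 bases before the RefSeq start of Aqp6, and it held no TATAA in the same place. Only the shown strand was searched, from 45 to 15 bases before the start, and 3.89% of the 32851 RefSeq promoter windows held TATAA there. A match describes the letters only.

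New isoforms were long transcripts with many exons. Their median length was 5157 bases and their median exon number 10, against 1209 bases and 6 exons for the annotated multi-exon transcripts of the same genes. They had 2 to 116 exons. A gene had a median of 2 new isoforms, 2921 genes had exactly 1 and 217 had 10 or more. The gene with the most was Ncor1, the nuclear receptor corepressor, with 51. The mean FPKM over the 15 mice was at least 1 in 9584 new isoforms and at least 10 in 369. It was above 0 in every mouse in 10916, and 40.9% were listed at 0 in at least 1 mouse against 60.7% of annotated transcripts.

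Of the 13770 genes with an annotated transcript and a mean of at least 1 FPKM, 6616 had a new isoform, which is 48.0%. The share of the gene's FPKM held by its new isoforms, averaged over the 15 mice, had a median of 28.7% and quartiles of 14.2% and 49.0%. It was above 50% in 1587 genes, 24.0% of them, or in 2580 when shares were taken of aligned bases, which weight long transcripts more. It was above 50% in every mouse in 521. In 57 genes it was above 90% in every mouse, and in 137 below 10% in every mouse. Between 0 and 30% the genes were spread nearly evenly, with 1143, 1211 and 1078 genes in the 3 successive bins of 10 points. The bins then emptied to 186 genes above 90%.

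**Figure D1:**
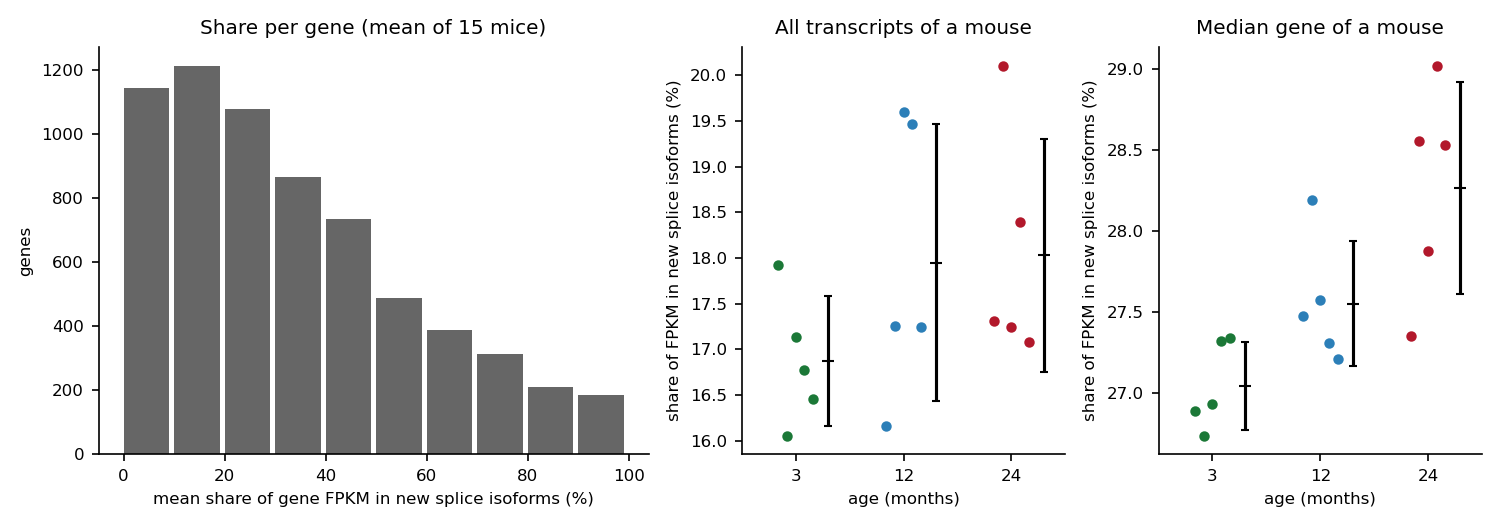
Left: number of genes by the mean share of their FPKM in new splice isoforms over 15 mice, in bins of 10 percentage points. Middle and right: the share of all FPKM and the median share per gene in each of the 15 mice by age in months, 1 point per mouse, with the mean and SD as a bar. The genes thin out toward high shares, and the total share overlaps between the ages.

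The share was smaller in genes of higher level. Its median was 34.2% in genes of 1 to 5 FPKM, 28.6% in those of 5 to 20, 25.6% in those of 20 to 100 and 16.9% in those of 100 FPKM or more. Genes of higher level also more often had a new isoform up to 100 FPKM, with 24.4%, 64.8% and 70.3% of genes in the first 3 of these ranges and 51.1% in the last. Assembly needs reads across a junction, and how far this set these shares was not tested. In each of the 4 ranges the multi-exon genes with a new isoform were more often hosts of a listed circular RNA, at 20.7, 49.5, 55.3 and 59.0%, than those without, at 14.6, 28.5, 26.7 and 36.3%.

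The genes in which new isoforms held the most FPKM were abundant products of the proximal tubule. The 10 leading genes held 15.9% of all FPKM in new isoforms. Gpx3, the plasma glutathione peroxidase that the kidney secretes, had 2 new isoforms with 2619 FPKM together, a share of 36.4% ± 13.3 (SD, n = 15) that ran from 12.5 to 53.3%. Kap, the androgen-regulated protein of the proximal tubule, had a summed mean of 6856 FPKM, and its new share was 24.3% ± 32.4 (SD, n = 15). In Kap the new share was listed at 0 in some mice. It reached 88.3% in 1 mouse of 24 months, 84.7% and 64.6% in replicates 20 and 19 of 12 months, and 54.7% in 1 mouse of 3 months. Its main new isoform, MSTRG.31534.1, has 1 exon more upstream than an annotated transcript and the same 3′ end.

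Selenop, the selenium transport protein of plasma, was nearly all new isoform. Its new share was 92.4 to 99.5% with a median of 98.3%, and MSTRG.11971.3 alone held 542 of 573 FPKM. That isoform has the same introns as ENSMUST00000159216, a transcript of GENCODE M21 that is not among the 6 annotated ones listed. Acy3, an aminoacylase of the tubule brush border, held 85.9 to 95.1% in new isoforms, and MSTRG.17426.1 likewise had the introns of an M21 transcript, ENSMUST00000236510. For both genes new means not among the annotated transcripts listed, and whether the annotation that the authors used held these transcripts was not tested.

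Enzymes and transporters with a larger spread were among the rest of the 10. Klk1, tissue kallikrein, had a new share of 3.96 to 53.1%, and its main new isoform keeps 1 intron of 96 bases. Pck1, the rate-limiting enzyme of gluconeogenesis, had 34.3 to 66.1%. Ugt3a2 had 33.3 to 66.2%, nearly all in MSTRG.12073.3, which lacks the exon printed above. In Mep1a, a metalloprotease of the brush border, the share ran from 2.14 to 99.5% with a median of 83.7%. Slc34a1, the sodium phosphate cotransporter of the proximal tubule, was the steadiest of these at 14.5 to 29.9%.

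**Figure D2:**
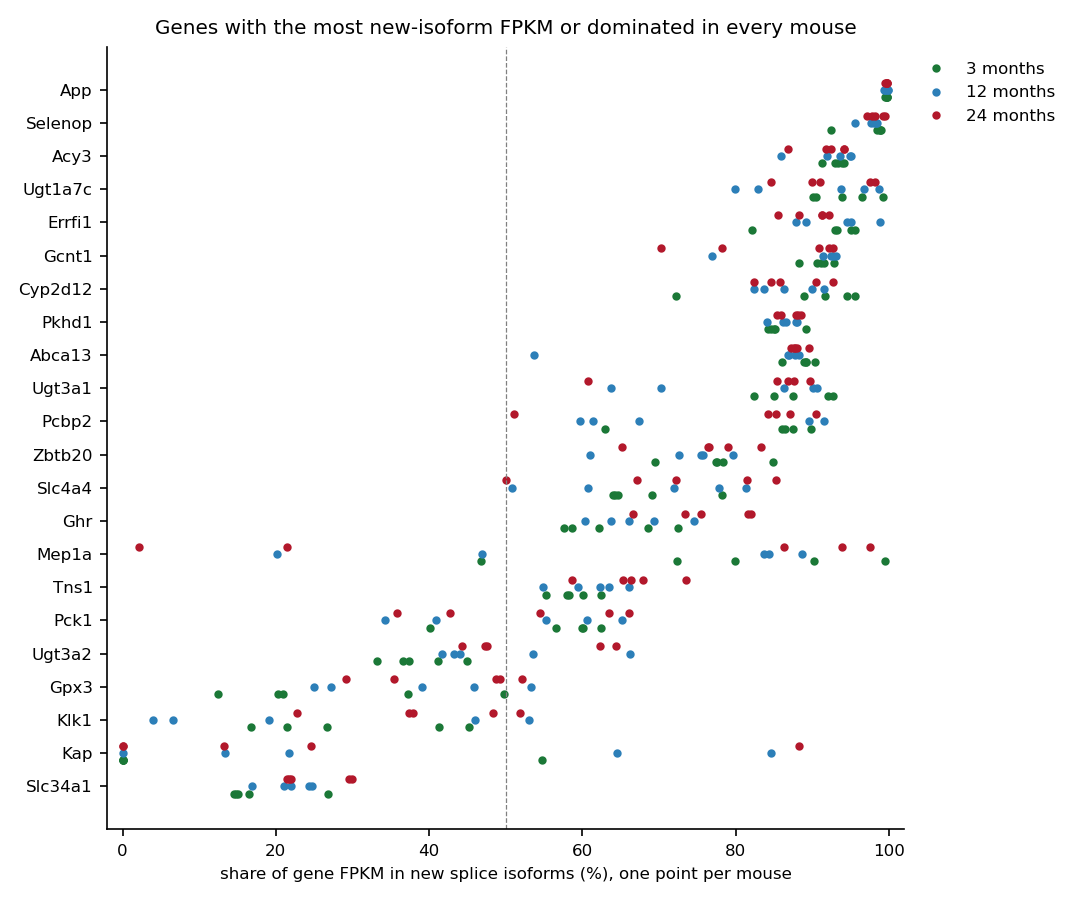
Share of each gene's FPKM in new splice isoforms, in percent, with 1 point per mouse and colours for the ages of 3, 12 and 24 months, for genes with the most FPKM in new isoforms or with more than 50% in every mouse; the dashed line marks 50%. App and Selenop lie near 100% in all 15 mice, while Kap and Mep1a are spread over most of the axis.

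The 15 genes of highest level with more than 50% of their FPKM in new isoforms in every mouse included Selenop and Acy3. Among transporters and channels, Slc4a4, the sodium bicarbonate cotransporter NBCe1 of the basolateral membrane, had 8 new isoforms with 50.1 to 85.3%, and the most abundant held 13.9% alone. Abca13, a lipid transporter, had 53.7 to 90.4%. Among metabolic enzymes, Cyp2d12, a cytochrome P450, had 72.3 to 95.5%. Ugt3a1 and Ugt1a7c, both UDP-glycosyltransferases, had 60.7 to 92.6% and 80.0 to 99.3%. Gcnt1, which branches O-glycans, had 70.3 to 93.1%.

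Receptors, scaffolds and regulators were the other members of these 15. Ghr, the growth hormone receptor, had 57.7 to 82.0%, and Tns1, a focal adhesion protein, had 54.8 to 73.6% in 11 new isoforms. Pkhd1, the gene of autosomal recessive polycystic kidney disease, had 24 new isoforms and a narrow range of 84.0 to 89.2%, although the most abundant of them held only 12.1%. Errfi1, an inhibitor of the EGF receptor, had 82.1 to 98.8%. Zbtb20, a transcriptional repressor, also had 24 new isoforms and 61.0 to 84.9%. Pcbp2, an RNA-binding protein, had 51.1 to 91.5%. App, the amyloid precursor protein, had the narrowest range of the 15 at 99.4 to 99.9%, with 68.0 of 68.2 FPKM in 8 new isoforms.

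The annotation listed was thin for several of these genes. For App 1 annotated multi-exon transcript was listed, whereas GENCODE M21 has 11. For Pcbp2 3 of 31 were listed, for Cyp2d12 and Acy3 1 of 7 each, and for Slc34a1 1 of 6. For Tns1 it was 19 of 21, for Slc4a4 7 of 8 and for Kap, Gpx3 and Pck1 all of 2, 3 and 4. Over the genome the gap depended on the chromosome. On chromosomes 12 to 19, 47.8% of the 34095 multi-exon M21 transcripts were not among those listed, against 20.3% of 80885 on the other chromosomes. The median new share per gene was 34.8% on chromosomes 12 to 19 and 26.8% on the others, and 32.4% against 20.4% of the genes lay above 50%. Of the 227 new isoforms with the same introns as an M21 transcript not listed, 221 lay on chromosomes 12 to 19, where they were 3.84% of the 5751 new isoforms. Hence on these chromosomes a gap in the listed annotation and a new structure cannot be told apart from the share alone.

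The form of the change could be read for a minority of new isoforms. From exon number, length and span against the annotated transcripts of the gene, 4728 had exactly 1 reading as a single step, 1292 had several and 12435, 67.4%, had none. The most frequent single steps were 1 intron kept, in 1107, and 1 more exon upstream, in 1091. Next came 1 more exon downstream in 750, 1 more internal exon in 580 and a moved splice site in 520. Another 441 had 1 more intron, with neither end extended by more than the gain in summed intron length. Whether that intron lay inside an annotated exon was not examined. In 239 there was 1 internal exon missing. Isoforms with a kept intron had the highest median share of these classes, 16.2% against 7.66% over all new isoforms. Their kept introns had a median length of 891 bases and ran from 68 to 64685. Unspliced RNA in a library can also give an assembled transcript that keeps an intron, and its part was not tested.

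**Figure D3:**
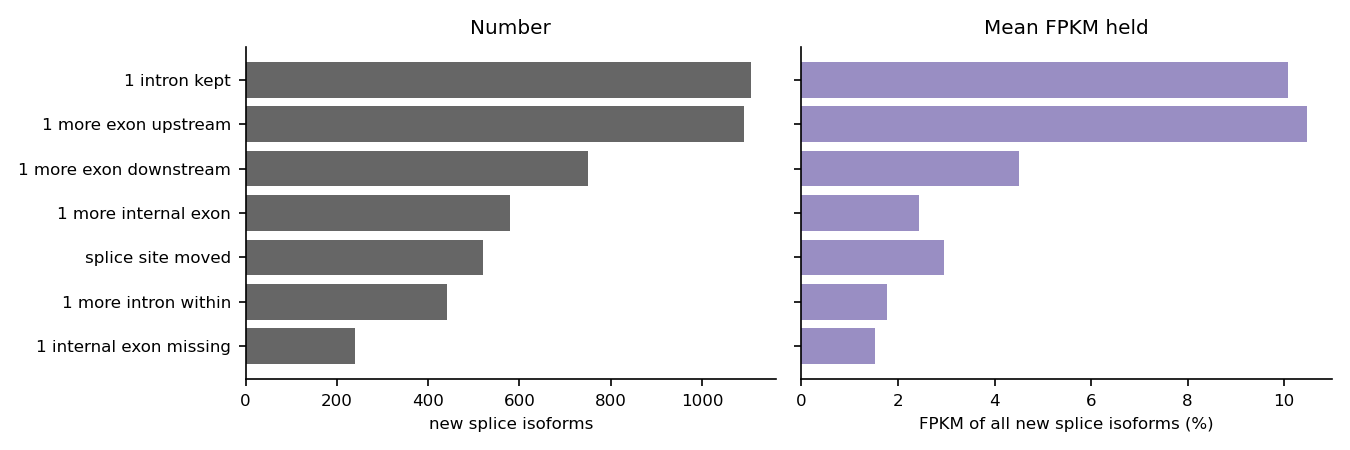
Left: number of new splice isoforms for each single-step difference from an annotated transcript. Right: the percent of the FPKM of all new splice isoforms held by each class, as the mean over 15 mice. Kept introns and additional upstream exons are the most frequent classes, and each holds about 10% of the FPKM (10.1% and 10.5%).

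Small shifts of splice sites were often by a multiple of 3 bases. Of the 520 moved splice sites, 277 moved by a multiple of 3 bases, which is 53.3%, and 125 by exactly 3. Whether the sites lay in coding sequence was not examined, and no background rate was taken. The most abundant example, in Hnf4a, the nuclear receptor that drives proximal tubule identity, moved by 30 bases in an isoform of 70.4 FPKM with a share of 50.6%. In Umod the move was 5 bases, at 63.7 FPKM and 7.64%. In S100g, the calcium-binding calbindin-D9k, the move was 3 bases, at 50.9 FPKM and 28.5%. In Sdhb, the iron-sulfur subunit of complex II, it was 6 bases, at 27.2 FPKM and 26.7% of the gene. Among kept introns, Ass1, argininosuccinate synthase, had an isoform of 166 FPKM that keeps an intron of 4367 bases, with 31.9% of the gene. Among additional upstream exons, Cat, catalase, had an isoform of 123 FPKM and Cubn, the endocytic receptor cubilin, 1 of 69.7 FPKM. These genes are among the most abundant of their classes.

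The ends of new isoforms lay nearer to annotated starts than to annotated ends. The 5′ end was within 100 bases of an annotated start of the gene in 51.6% of 18383 new isoforms, with a median distance of 84 bases. The 3′ end was within 100 bases of an annotated end in 35.2%, with a median of 369 bases. Upstream of every annotated start lay 4307 new isoforms, 23.4%, and past every annotated end 8142, 44.3%. An assembled end is where coverage stops, so it is less exact than a junction. Of 6836 new isoforms that began more than 100 bases from an annotated start, in genes with a RefSeq start, 286 began within 100 bases of a RefSeq start, which is 4.18%.

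Which transcript led a gene was unstable between mice. By mean FPKM a new isoform led 1852 of the 6616 genes, 28.0%. The same transcript, new or annotated, led in all 15 mice in 1279 genes, 19.3%. A new isoform led in every mouse in 428, and the same new isoform in 150. Between 2 mice of 3 months the leading transcript differed in a median of 39.4% of genes, between 2 of 12 months in 38.1% and between 2 of 24 months in 39.2%. Between a mouse of 3 and a mouse of 24 months it differed in 40.2%, with a range over pairs of 38.1 to 42.9%, which overlaps the 37.1 to 40.0% within 24 months.

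The spread of FPKM between mice was far larger for isoforms than for genes. For new isoforms of at least 1 FPKM the median coefficient of variation was 51.5% at 3 months, 48.7% at 12 and 49.1% at 24. For annotated transcripts of the same genes it was 44.2, 41.3 and 41.8%. After summing the new isoforms of a gene it fell to 38.1, 35.1 and 34.6%, and after summing all transcripts to 18.7, 16.7 and 17.1%. A difference in share between ages therefore has to be read against a wide spread within an age.

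**Figure D4:**
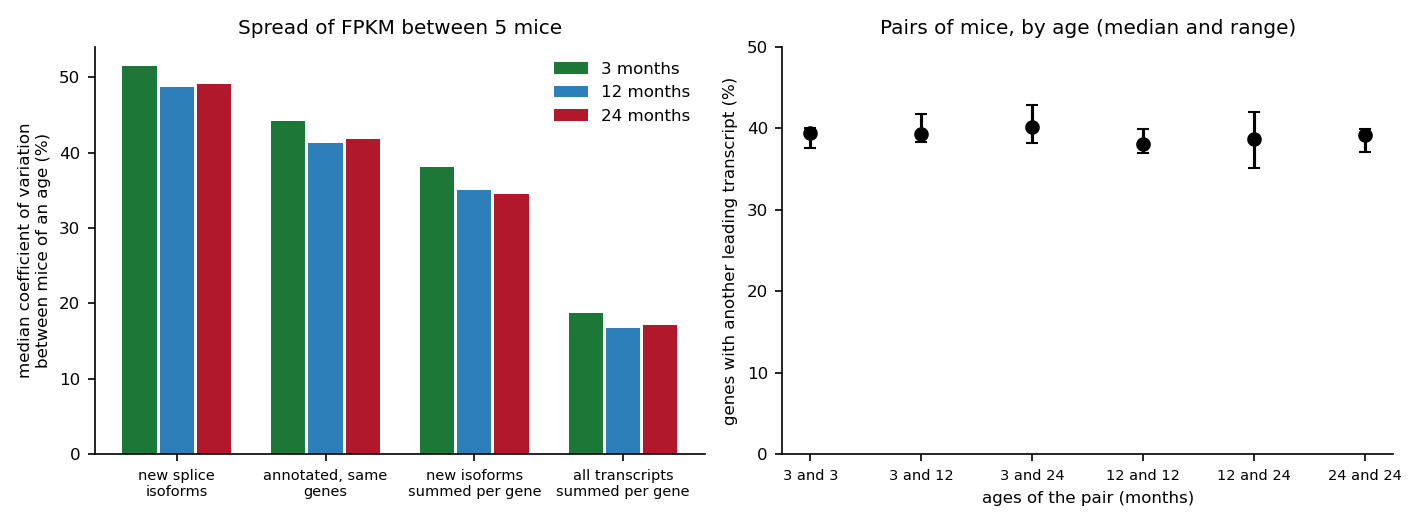
Left: median coefficient of variation of FPKM between the 5 mice of an age, in percent, for new splice isoforms, annotated transcripts of the same genes, and sums per gene. Right: percent of genes whose leading transcript differs between 2 mice, as the median and range over pairs of mice by their ages in months. Sums per gene vary least, and pairs of different ages differ about as often as pairs of the same age.

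New isoforms together held a similar share of all FPKM at the 3 ages. The 5 mice of 3 months had 17.9, 16.1, 17.1, 16.8 and 16.5%, those of 12 months 16.2, 17.3, 19.6, 19.5 and 17.2%, and those of 24 months 17.3, 20.1, 17.2, 18.4 and 17.1%. The ranges overlapped, and the means were 16.9% ± 0.71, 17.9% ± 1.52 and 18% ± 1.27 (SD, n = 5 each). Without the 10 leading genes they were 16.0% ± 0.31, 15.9% ± 0.54 and 16.5% ± 0.38, so the higher mean at 12 months rested on those genes. The mice with the highest Kap share at 3 and at 24 months, 54.7 and 88.3%, were also those with the highest total share of their age. At 12 months the mouse with the highest Kap share, 84.7%, had a total of 19.5%, just under the 19.6% of another mouse. By aligned bases the share was 38.1, 38.0 and 38.8%, more than by FPKM since new isoforms are long. The median share per gene was 27.0% ± 0.27, 27.6% ± 0.38 and 28.3% ± 0.65. In that measure the 5 mice of 24 months (27.4 to 29.0%) all exceeded the highest of 3 months, 27.3%. The mice of 3 months also had the lowest mean sequencing depth, with overlap between the ages. The number of new isoforms above 0 was 14954 to 15438 at 3 months, 15470 to 15841 at 12 and 15404 to 15651 at 24. No test was made of these totals.

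The 3 age comparisons asked which new isoforms changed in level or in share of their gene. All were fitted with limma over every listed transcript. A level was called changed at an unadjusted p under 0.05 and a log2 fold change beyond 1 on the log2(FPKM + 1) scale, and a share at an unadjusted p under 0.05 and a difference of at least 10 percentage points. Between 24 and 3 months 350 of 18259 new isoforms were called by level, 1.92%, against 0.795% of all transcripts tested. Among transcripts with a mean of at least 1 FPKM the 2 rates were nearer, 323 of 9494 new isoforms (3.40%) against 2.96% of all. The count rose to 1228 with a pseudocount of 0.1 and to 1059 on the TPM scale. Of the 350 219 were higher (all transcripts 0.465%) and 131 lower (0.33%). Between 12 and 3 months it was 353 of 18218, 1.94%, against 0.784%, with 221 higher (0.466%) and 132 lower (0.317%). Between 24 and 12 months it was 207 of 18233, 1.14%, against 0.402%, with 88 higher (0.186%) and 119 lower (0.216%). On the TPM scale the last split turned to 345 higher and 272 lower. New isoforms had a higher median FPKM than annotated ones, 1.06 against 0.19, and a log2 fold change beyond 1 with a pseudocount of 1 needs a level of about that size.

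By share the new isoforms were called at a rate near that of all transcripts. Between 24 and 3 months 523 of 18199 were called, 2.87% against 2.54%, with 312 higher (1.71% against 1.29%) and 211 lower (1.16% against 1.24%). Between 12 and 3 months 459 of 18162 were called, 2.53% against 2.38%, with 263 higher (background 1.24%) and 196 lower (1.14%). Between 24 and 12 months 364 of 18175 were called, 2.0% against 1.69%, with 192 higher (background 0.793%) and 172 lower (0.896%). The F test over the 3 ages called 545 of 18395, 2.96% against 2.57%. An unadjusted p under 0.05 alone was reached by 5.57% of new isoforms and 5.53% of all transcripts between 24 and 3 months. By level the same rates were 9.32% and 7.90% between 24 and 3 months, 9.07% and 7.46% between 12 and 3, and 5.55% and 4.47% between 24 and 12. The comparisons share mice, so their counts are not independent.

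After Benjamini-Hochberg adjustment over all transcripts few calls were left. By level 3 new isoforms passed between 24 and 3 months, 1 between 12 and 3 and 1 between 24 and 12. By share 1 called isoform passed between 24 and 3 months and 1 in the F test. None passed in the other 2 share comparisons, in which limma gave an unadjusted p under 0.05 for 975 and 694 new isoforms. Leaving out 1 mouse in turn gave 1 to 5, 0 to 6 and 0 to 3 adjusted calls by level in the 3 comparisons, 0 or 1 by share between 24 and 3 months and 0 to 3 in the F test. Between 24 and 3 months the values of the 2 ages did not overlap in 86 of the 523 share calls and 98 of the 350 level calls. That was 16.4% and 28% of the calls, where over all transcripts it was 17.7% and 29.9% of the calls, or 0.449% and 0.238% of the transcripts tested. The 523 share calls lay in 485 genes, and 162 of them were also called by level.

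Ece1, endothelin-converting enzyme, gave the new isoform with the smallest p among those called by share between 24 and 3 months. MSTRG.26001.3 (chr4:137913002-137965228, plus strand, 19 exons) had shares of 0.385, 0.0779, 37.3, 0 and 0.178% in the mice of 3 months. At 12 months they were 97.6, 38.9, 47.7, 32.3 and 44.7%, and at 24 months 93.4, 71.7, 83.8, 91.6 and 85.9%. All mice of 24 months lay above all mice of 3 months, and those of 12 months between or overlapping. The difference between 24 and 3 months was 77.7 points (SE 8.17, limma adjusted p = 0.0492). With 1 mouse left out the limma adjusted p ran from 0.00168 to 0.166 and was under 0.05 in 1 of 10 fits, the one without replicate 7 of 3 months, and in the F test over the 3 ages it was 0.135. The annotated transcript ENSMUST00000102518 moved the other way, with 57.2 to 96.0% at 3 months and 1.01 to 14.3% at 24 months. The new isoform began 469 bases from the nearest annotated start listed and 556 bases before a RefSeq start of the gene. The first annotated start lay 50765 bases upstream. The summed FPKM of Ece1 changed little, with a log2 difference of 0.24.

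Ptprk showed the opposite pattern. MSTRG.3293.6 (chr10:28074857-28597656, plus strand, 30 exons), which lacks the exon of 18 bases printed above, had shares of 29.1, 34, 27.8, 14.4 and 35.4% at 3 months. At 12 months it was listed at 0 in 4 mice and held 46.5% in the fifth, and at 24 months it was listed at 0 in all 5. By level the adjusted p was 0.00175 (limma, 24 against 3 months) and at most 0.00893 in the 10 fits without 1 mouse, with 10.9 FPKM on average at 3 months. The annotated ENSMUST00000166468, of 32 exons, was at or below 0.149% in every mouse of 3 months and at 35.6 to 44.3% in 4 of 5 mice of 24 months. The summed FPKM of Ptprk had a log2 difference of -0.22 between 24 and 3 months.

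Dap3, a protein of the mitochondrial ribosome, had a new isoform seen almost only at 12 months. MSTRG.22688.1 (chr3:88920803-88951149, minus strand, 14 exons) held 47.8, 56.9, 21.6, 44.6 and 30.1% at 12 months. At 3 months it was at most 0.0542%, and at 24 months it was listed at 0 in all 5 mice. The annotated ENSMUST00000090938 was listed at 0 in the 5 mice of 12 months and held 37.0 to 54.2% at 3 months and 22.4 to 46.5% at 24. The adjusted p of the level was 0.00957 for 12 against 3 months and 0.0138 for 24 against 12, and that of the share over the 3 ages 0.0292 (limma). These limma values stayed under 0.05 in 9 of 10, 7 of 10 and 7 of 15 fits without 1 mouse, and their highest were 0.0528, 0.0638 and 0.122. The new isoform was read as having 1 more exon upstream than an annotated transcript of the gene, which is not named here. It began 32 bases past the first annotated start.

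Map2k7, a kinase of the JNK pathway, had the same shape without passing the adjustment. MSTRG.34657.2 held 29.1, 67.0, 29.5, 19 and 28.2% at 12 months, and at most 4.20% at 3 months and 5.22% at 24. The 12-month mice stood apart from all others. The difference to 3 months was 33.6 points (SE 7.94, limma adjusted p = 0.788). Acot3, a peroxisomal thioesterase, had its low point at 12 months. MSTRG.8534.1 held 100, 77.1, 100, 100 and 100% at 3 months and 26.8 to 58.5% at 12, and at 24 months it ran from 5.24 to 100%. Emx1, a homeobox gene, had MSTRG.30657.3 at 15.8 to 33.3% at 3 months and listed at 0 in the 5 mice of 12 months. Mean levels over all mice were 1.08 FPKM for the isoform of Map2k7, 2.53 for that of Acot3 and 0.497 for that of Emx1.

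Ces1d and Gm6309 were the other new isoforms that passed the adjustment by level between 24 and 3 months. MSTRG.36155.3 of Ces1d, a carboxylesterase, was listed at 0 in all mice of 3 months and held 3.07 to 10.4% of the gene at 24 months, with 8.23 FPKM on average (limma adjusted p = 0.0173). This transcript of 10 exons and 1143 bases ended 24678 bases past every annotated end of Ces1d listed. Whether it joins another gene was not tested. MSTRG.29257.2 of Gm6309 rose from 0.26 to 1.79 FPKM with its gene (log2 fold change 1.14, SE 0.13, limma adjusted p = 0.0433). Without 1 mouse the limma adjusted p of Ces1d was under 0.05 in 9 of 10 fits and that of Gm6309 in 0 of 10, with 0.0588 to 0.109. The share of the Gm6309 isoform was high throughout, at 59.3 to 100% at 3 months and 55.8 to 96.4% at 24.

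Other new isoforms higher in share at 24 than at 3 months, with no overlap between the ages, did not pass the adjustment. Bbip1, a subunit of the BBSome of primary cilia, had MSTRG.18390.1 at 4.16, 49.5, 38.4, 22.9 and 8.32% at 3 months and 100, 93.4, 91.6, 100 and 84.5% at 24 (69.3 points, SE 8.72, limma adjusted p = 0.156). In Ttc13 MSTRG.36615.3 held 6.96 to 18.4%, 9.87 to 21.8% and 29.0 to 46.6% at the 3 ages, so the mice of 24 months stood apart from both other groups. Irgq, a GTPase-like autophagy factor, had MSTRG.32210.1 at 8.33 to 36.1% and then 46.6 to 56.2%. The mean levels of the isoforms of Bbip1, Ttc13 and Irgq over all mice were 2.05, 1.81 and 1.61 FPKM. Iglv1, an immunoglobulin light chain segment, had MSTRG.13748.1 at 11.6 to 49.8% and then 77.5 to 94.9%, while the summed B and plasma cell markers were also higher at 24 months in every mouse. That transcript, of 4 exons and 892 bases at a mean of 2.40 FPKM, ended 23409 bases past every annotated end of Iglv1 listed. Whether it comes from splicing or from rearranged DNA was not tested.

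New isoforms lower in share at 24 months without overlap were in genes of several kinds. Arg2, the mitochondrial arginase of the kidney, had MSTRG.8389.2, which keeps 1 intron, at 34.1, 48.1, 46.6, 49.1 and 42.2% at 3 months and 0, 28.5, 4.81, 17.3 and 0% at 24 (-33.9 points, SE 6.27, limma adjusted p = 0.519). Its annotated ENSMUST00000021550 held 50.9 to 65.9% and then 71.5 to 100%. In Gabra3, a GABA receptor subunit, MSTRG.39541.2 held 96.5 to 100% at 3 months and 0.212 to 0.893% in 4 mice of 24 months, with 65.0% in the other. Tnrc6c, a partner of Argonaute in miRNA silencing, had MSTRG.7399.6 at 21.6 to 37.7% and then 2.29 to 18.4%. Lhfpl2 had MSTRG.10310.4 at 59.5 to 92.5% and then 0 to 46.1%. In 9930111J21Rik2, of the interferon-inducible GTPase region, MSTRG.5631.1 held 60.4 to 98.0% at 3 months and at most 40.6% at 24. Over all mice the isoforms of Arg2, Gabra3, Tnrc6c, Lhfpl2 and 9930111J21Rik2 had mean levels of 1.15, 1.56, 1.58, 0.780 and 1.25 FPKM. At such levels a change of many points in share is a change of few FPKM.

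**Figure D5:**
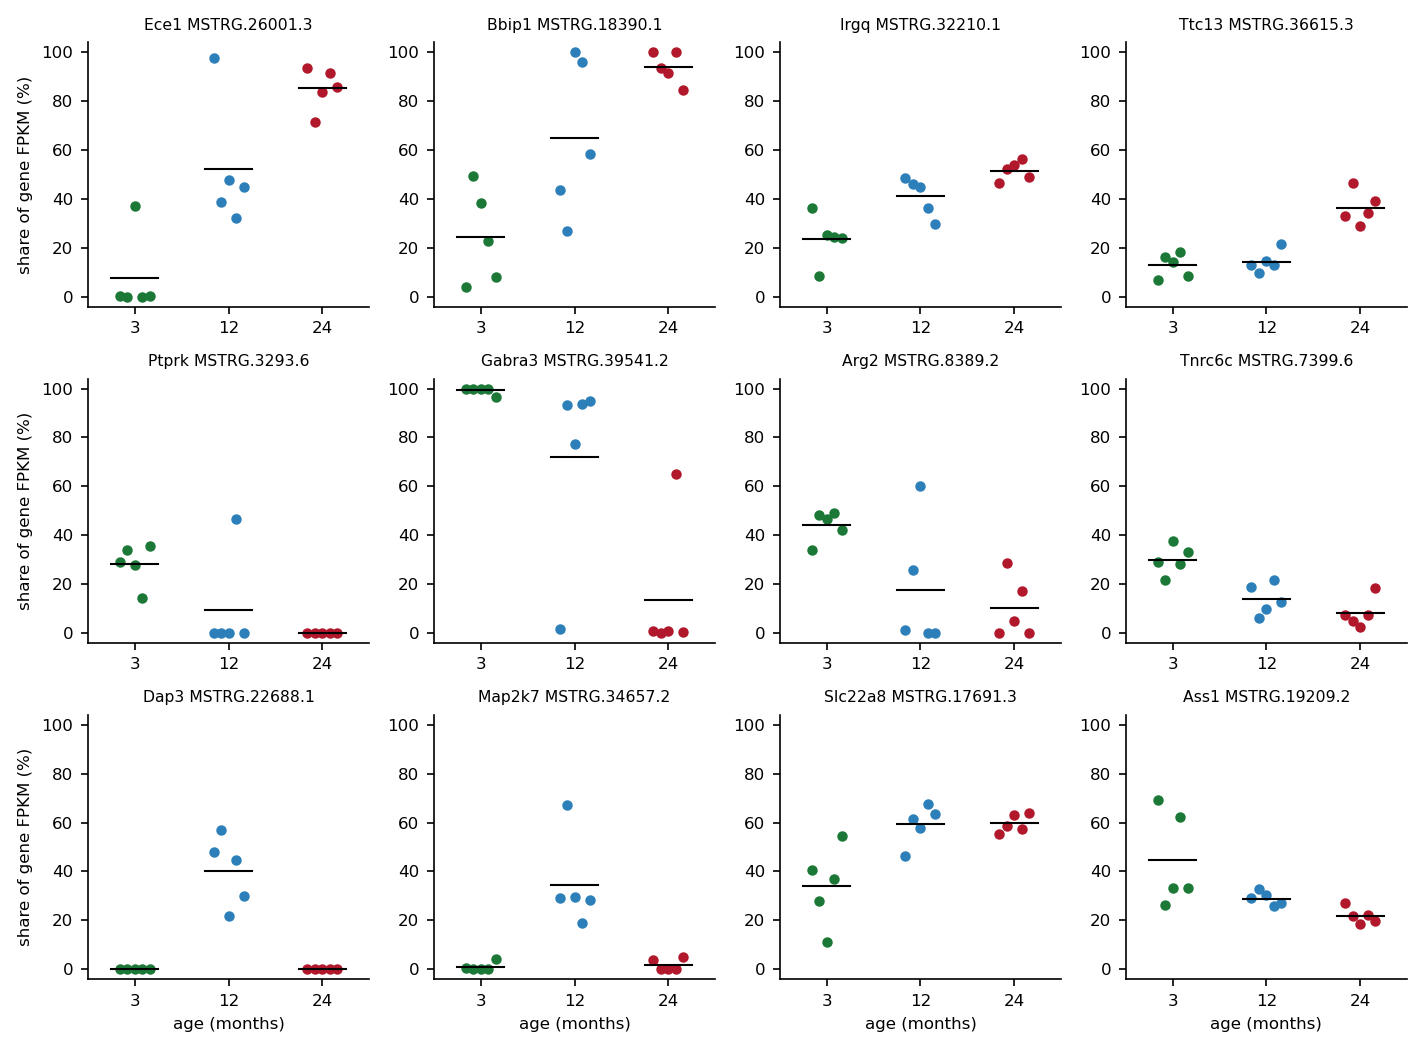
Share of the gene's FPKM held by 12 new splice isoforms, in percent, in each mouse at 3, 12 and 24 months (points) with the mean of the age (line). The Ece1 isoform lies at 71.7% or more in the mice of 24 months, the Ptprk isoform is listed at 0 in all of them, and the Dap3 and Map2k7 isoforms are high at 12 months alone.

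The comparisons with 12 months gave further calls. Slc6a4, the serotonin transporter, had MSTRG.6355.3 at 0, 14.0, 0, 24.3 and 0% at 3 months and 39.9 to 93.0% at 12, with 2.39 FPKM on average at 12 months. Gm10804 had MSTRG.20152.1 at 17.9 to 31.3% at 3 months and a tight 42.9 to 46.9% at 12. Chrna4, a nicotinic receptor subunit, had MSTRG.21774.7 at 30.3 to 62.9% and then 3.65 to 17%. Mrps6, of the mitochondrial ribosome, had MSTRG.14538.2 at 7.76 FPKM on average at 3 months and 0.886 at 12 (log2 fold change -2.18, SE 0.33, limma adjusted p = 0.168). From 12 to 24 months Trmt44 MSTRG.27152.2 went from 0 to 12.2% to 21.3 to 40.3%, and Gm11788 MSTRG.7488.5 from 31.2 to 51.6% to 58.9 to 76.2%. Cyb5r1, a reductase, had MSTRG.1870.9 at 37.7 to 77.3% and then 0 to 27.1%. For Srcin1 MSTRG.6844.5 the values were 7.80 to 18.5% and 0 to 5.07%. The isoforms of Trmt44, Gm11788, Cyb5r1 and Srcin1 had mean levels of 0.480, 1.98, 2.73 and 0.404 FPKM over all mice. By level Rps6ka3, the kinase RSK2, had MSTRG.40210.5 at 0.706 and then 2.93 FPKM, and Zfx, a zinc finger factor, MSTRG.39708.2 at 0.0789 and then 1.25 FPKM. The log2 fold change of Zfx was 1.04 (SE 0.20, limma adjusted p = 0.838), and without the mouse of replicate 31 or 32 it was 0.91 or 0.999, below the limit.

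Some isoforms called by level lay in genes whose summed FPKM also differed. Arntl, the clock factor BMAL1, had MSTRG.33930.7 at 2.45 FPKM on average at 3 months and 0.326 at 24 (log2 fold change -1.39, SE 0.18, limma adjusted p = 0.0687), while its share stayed at 18.5 to 23.2% and 17.2 to 27.1%. The summed FPKM of Arntl had a log2 difference of -2.51. Npas2, which pairs with BMAL1 in the clock, had MSTRG.403.3 at 3.90 and then 0.379 FPKM, with a gene difference of -1.97. The time of day at which kidneys were taken was not given in the sources used here. Kyat1, a kynurenine aminotransferase, had MSTRG.19149.11 at 6.66 and then 2.25 FPKM (log2 fold change -1.23, SE 0.19, limma adjusted p = 0.12), more than its gene with a difference of -0.37. Its shares were 8.15 to 18.8% and 5.25 to 7.82%. Ighm, the heavy chain of IgM, had 5 new isoforms with 53.4 to 100% of the gene, and MSTRG.8990.6 was at 0.493 FPKM at 3 months and 4.38 at 24 (log2 fold change 1.82, SE 0.23, limma adjusted p = 0.0619). The gene itself had a log2 difference of 2.63, as part of the B and plasma cell markers given above. The part of cell numbers in this difference was not tested.

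The proximal tubule list held 20 genes, of which 18 had a new isoform, with a median share of 33.5%. In 6 it was above 50%. Of 67 new isoforms tested between 24 and 3 months 2 were called higher and 1 lower by share, beside 1.29% and 1.24% of all transcripts. The 2 were both of Slc22a8. MSTRG.17691.3 had 40.5, 27.9, 11, 36.8 and 54.7% at 3 months, 46.4 to 67.4% at 12 and 55.3 to 63.9% at 24 (25.5 points, SE 7.38, limma adjusted p = 0.779). MSTRG.17691.4, whose upstream stretch is printed above, had 2.04 to 27.4% and then 18.6 to 32.3%, which overlap. The annotated ENSMUST00000010251 went from 27.0 to 86.1% to 9.40 to 14.0%. The lower one was the isoform of Ass1 with the kept intron, at 69.4, 26.1, 33.2, 62.1 and 33.1% at 3 months and 18.3 to 27.2% at 24 (-22.9 points, SE 8.57, limma adjusted p = 0.779). Slc5a12, the lactate transporter SMCT2, had 13 new isoforms with 39.0 to 92.5%, and none was called.

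Distal segments gave 1 share call over the 3 comparisons. In the thick limb and distal tubule list 9 of 12 genes had a new isoform, and of 48 or 49 tested none was called by share in any comparison. An unadjusted limma p under 0.05 was reached by 2 of them in each of the 3 comparisons. Slc12a1, the NKCC2 cotransporter whose splice forms are known to differ along the limb, held 34.2 to 78.1%. Slc12a3, the thiazide-sensitive cotransporter, held 33.9 to 77.0% and Kcnj1, the potassium channel ROMK, 33.7 to 78.1%. In the collecting duct list, Slc4a1, the anion exchanger of intercalated cells, ran from 0 to 100% with a median of 96.2%, and Avpr2, the vasopressin receptor, from 42.4 to 94.0%. Aqp4, the basolateral water channel, ran from 16.0 to 96.6%, and its MSTRG.16444.2 was the 1 call of 21, lower at 12 than at 3 months (1.14% of all transcripts). That isoform had a mean of only 0.375 FPKM over all mice. Aqp6, named after its values were seen, held 97.7% in MSTRG.13229.1 alone, which has the introns of the M21 transcript ENSMUST00000230075.

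Podocyte, vascular and immune genes differed widely in the share of their new isoforms. Of 7 podocyte genes 3 had a new isoform. Synpo, the actin organizer of foot processes, held 47.9 to 85.1%, whereas Wt1, the podocyte transcription factor, held 0 to 17.8% and Magi2, a slit diaphragm scaffold, at most 10.5%. Pdgfrb, the receptor of pericytes, held 54.0 to 88.4%, and Flt1 and Kdr, the VEGF receptors, 17.1 to 56.7% and 9.85 to 52.1%. In Col1a2, a fibrillar collagen chain, MSTRG.29412.2 was at 0 to 64.4% at 12 months and at most 8.43% at 24, the 1 call of 18 in the endothelium and stroma list in that comparison (lower in 0.896% of all transcripts). Csf1r, the macrophage growth factor receptor, held 66.1 to 97.5% in 8 new isoforms and Ptprc, the pan-leukocyte phosphatase CD45, 0.403 to 84.8%. Ighm MSTRG.8990.1, the 1 call of 16 in the immune list, was lower in share at 24 than at 3 months (1.24% of all transcripts). It had 12.5 to 36.6% at 3 months and 9.82 to 15.7% at 24, which overlap.

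All 36 splicing regulators of the list had at least 1 new isoform, where 48.0% of all genes and 64.8 to 70.3% of those of 5 to 100 FPKM had one. They had 202 in all and a median share of 34.1%. Of 201 tested between 24 and 3 months 4 were called higher by share and none lower, beside 1.29% and 1.24% of all transcripts, and limma gave an unadjusted p under 0.05 for 9. That p was reached by 20 of 200 between 12 and 3 months and 10 of 201 between 24 and 12, where all transcripts gave 5.53, 5.44 and 4.0% in the 3 comparisons. The 4 were in Srsf7, Srsf10, Hnrnpc and Hnrnpf, factors that bind exons and introns and guide splice site choice. Srsf7 MSTRG.16193.1 had 17.4, 15.1, 22.9, 16.2 and 18.9% at 3 months and 21.3, 35.4, 52.5, 39.3 and 44.6% at 24, which overlap in 1 mouse of each age (20.5 points, SE 5.61, limma adjusted p = 0.779). Srsf10 MSTRG.25944.7 had 9.34 to 22.5% and then 22.8 to 36.8%. Hnrnpc MSTRG.11251.13 had 5.82 to 15.1% and then 12.9 to 44.6%, and Hnrnpf MSTRG.31251.9 0.124 to 14.1% and then 12.8 to 29.6%. In the comparisons with 12 months single isoforms of Rbfox2, Hnrnpf, Tra2a, Srsf7 and Srsf11 were called, 2 higher and 3 lower, out of 200 and 201 tested (1.24% and 1.14% of all transcripts higher and lower between 12 and 3 months, 0.793% and 0.896% between 24 and 12). Mbnl2, the muscleblind splicing factor, held 97.6 to 100% in new isoforms, with 1 annotated transcript listed.

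Genes with well-known alternative splice forms were chosen as a list of their own. Of 31 such genes 27 had a new isoform, with a median share of 34.6%, and 9 were above 50%. Of 132 new isoforms tested between 24 and 3 months 1 was called, lower, beside 1.24% of all transcripts. It was MSTRG.38863.11 of Map4, a microtubule-associated protein, at 9.12 to 22.9% and then 2.70 to 13.4%. Insr, the insulin receptor, held 83.8 to 97.3% in 5 new isoforms. Clstn1 held 51.1 to 89.1%, and MSTRG.26335.1, which lacks the printed exon of 57 bases, held 63.0% of the gene on average. Of 16 respiratory chain and ATP synthase genes 6 had a new isoform, 7 in all, with a median share of 14.5%. The 1 call of 7, beside 1.24% of all transcripts, was MSTRG.19854.3 of Atp5g3, a subunit c gene of ATP synthase, with 0.142 to 7.88% at 3 months and 3.19 to 43.5% at 12.

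The part of new-isoform FPKM held by each class of structure was also compared over the ages. Kept introns made up 10.5% ± 0.71, 9.38% ± 0.43 and 10.4% ± 0.44 (SD, n = 5 each) of it at 3, 12 and 24 months, and missing internal exons 1.61% ± 0.21, 1.51% ± 0.19 and 1.47% ± 0.15. Additional upstream exons ranged from 5.11 to 17%, a spread that Kap contributes to. Of 1107 isoforms with a kept intron 41 were called higher and 18 lower by share between 24 and 3 months, 5.33% against 2.54% of all transcripts. This class also has higher shares, and a change of 10 points needs a share of that size, so the rate is not comparable with that of classes of lower share. The median difference of the class was 0.91 points.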

How the data were processed

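Kidney tissue of 15 mice was profiled by RNA-seq, 5 per age, with 1 library per mouse. Per the study's methods and labels, reads were trimmed, aligned and assembled with StringTie on GRCm38, and the labels name TopHat and TopHat2 where the methods name HISAT2. The authors deposited a single table of transcripts with the FPKM and the mean per-base coverage (signal) of each transcript in each mouse, and it was used as deposited. The authors also deposited a table of circular RNAs with an estimated count of junction reads per mouse, from which only the names of host genes were taken. FPKM are not counts, so no count test was run, and coverage times length gave the aligned bases. FPKM of 1 transcript depends on how the assembler divides shared reads, which adds error to every share. No column of the tables belonged to another series (0 such columns).

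Genes were defined by symbol, chromosome and strand, and shares were tested in genes with a mean of at least 1 FPKM and at least 2 transcripts. Levels as log2(FPKM + 1) and shares in percent were fitted with limma 3.58.1 (eBayes with trend) in R 4.3.3 over all transcripts, with Benjamini-Hochberg adjustment over all, and an F test over the 3 ages was added for shares. A limma p is 2-sided. On simulated data for 24 against 3 months, 182 of 200 transcripts changed by 1.5 (log2) were recovered among 124719, and 618 others (0.496%) were called; for shares 151 of 200 changed by 20 points were recovered among 91511, and 1756 others (1.92%) were called.

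Named were the 10 genes with the most FPKM in new isoforms, the 15 of highest level above 50% in every mouse, the called isoforms of smallest p without overlap between the ages in each direction, the largest share changes in genes whose sum did not change, and members of lists of segment, cell type, splicing, respiratory chain and alternative splicing genes. For the F test, which has no direction, the 6 smallest p were taken. Further genes in the passages on structure and sequence, and Aqp6, were named after their values were seen. Some named genes are not reported here. Members and lists were chosen with earlier results of these data known. A permutation test of the total share had been planned and is not given, since the total is a score over the chosen transcripts.

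Structures were compared with GENCODE M21 and RefSeq (GRCm38.p6), and 95.6% of the annotated transcripts listed had the same start, end and exon number in M21. Moved splice sites were read up to 60 bases and additional internal exons up to 1000. The alternatives were a pseudocount of 0.1, filters of 1 and 5 FPKM or none, TPM, the arcsine of the share, aligned bases, the file's gene identifier, all 15 mice in 1 fit, adjusted p and leaving out each mouse.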

Additional observations from a re-analysis of the deposited data

Results flagged for a closer look

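Among the 180 groups of 5 mice behind the named values, 34 (18.9%) held 1 mouse whose gap to the nearest other mouse exceeded 0.71 of the range of the group, Dixon's 95% limit for 5 values, where chance alone flags about 1 in 20 groups. Shares are bounded, and groups of values near 0 or 100 meet the limit easily.

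In the share of a gene's FPKM in new isoforms, Kap stood at 54.7% in replicate 5 of 3 months, where the other 4 mice were near 0, and at 88.3% in replicate 32 of 24 months, where the others did not exceed 24.6%. Selenop was low at 92.4% in replicate 8 of 3 months and at 95.6% in replicate 19 of 12 months. At 3 months Pck1 was low at 40.1% in replicate 7, Cyp2d12 at 72.3% in the same mouse and Errfi1 at 82.1% in replicate 6, while Slc34a1 was high at 26.9% in replicate 8 and Pkhd1 at 89.2% in replicate 5. Pcbp2 was low at 63.0% in replicate 8 of 3 months and at 51.1% in replicate 31 of 24 months. Ugt3a1 was low at 60.7% in replicate 34 of 24 months, Abca13 at 53.7% in replicate 17 and Gcnt1 at 76.9% in replicate 21 of 12 months.

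Among single isoforms, Ece1 MSTRG.26001.3 had 4.87 FPKM and 37.3% of the gene in replicate 7 of 3 months, where the other 4 mice did not exceed 0.385%, and 97.6% in replicate 17 of 12 months. Ptprk MSTRG.3293.6 had 15.4 FPKM and 46.5% in replicate 20 of 12 months and was listed at 0 in the other 4. Map2k7 MSTRG.34657.2 had 0.456 FPKM and 4.20% in replicate 9 of 3 months, and 4.93 FPKM and 67.0% in replicate 18 of 12 months. Gabra3 MSTRG.39541.2 had 96.5% in replicate 9 of 3 months against 100% in the others, 1.60% in replicate 17 of 12 months and 65.0% in replicate 34 of 24 months. Mrps6 MSTRG.14538.2 had 19.2 FPKM in replicate 34 and Arntl MSTRG.33930.7 0.88 FPKM in replicate 35 of 24 months, and Zfx MSTRG.39708.2 had 0.394 FPKM in replicate 18 of 12 months. Slc6a4 MSTRG.6355.3 had 22.3% in replicate 32 of 24 months. At 3 months Gm11788 MSTRG.7488.5 had 97.8% in replicate 5 and Acot3 MSTRG.8534.1 77.1% in replicate 6. Ighm MSTRG.8990.6 had 1.09 FPKM in replicate 9 of 3 months and 10.9 FPKM in replicate 17 of 12 months. The causes were not tested.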

How the results depend on the processing

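The counts of new isoforms called by level for 24 against 3, 12 against 3 and 24 against 12 months rose to 1228, 1225 and 740 with a pseudocount of 0.1, and to 1059, 1040 and 617 on the TPM scale, where the same pseudocount is a smaller part of each value. With an adjusted p under 0.05 they fell to 3, 1 and 1, and the counts by share to 1, 0 and 0, with 1 left in the F test. Leaving out each mouse in turn gave 364 to 404, 359 to 416 and 207 to 235 by level, 478 to 547, 428 to 506 and 318 to 395 by share, and 524 to 588 in the F test. The count by share with an adjusted p for 24 against 3 months was 0 in 6 of the 10 fits that left out a mouse, and 0 with all 15 mice in 1 fit. Counts under the other filters, the arcsine, aligned bases and the file's gene identifier stayed within 1.5 times the reported ones. The difference in the total share was 2.21 points for 24 against 3 months over genes with a new isoform only. It was -0.12 points for 12 against 3 months by aligned bases, a sign change in a difference smaller than the spread. Leaving out each mouse gave 0.64 to 1.42, 0.66 to 1.52 and -0.44 to 0.50 points for the 3 comparisons. Genes above 50% numbered 521 when every mouse had to be above it and 2580 by aligned bases, which weight long transcripts more, and 1585 to 1610 without 1 mouse. Of 46 results for single isoforms none reversed and 39 lost the call under an adjusted p. The call in Srcin1 was also lost by aligned bases, with a difference of -6.64 points, and that in Zfx without replicate 31 or 32. No paired analysis was possible because the replicate numbers of the 3 ages are those of different mice and none is shared. With 5 mice per age, the median coefficient of variation of 48.7 to 51.5% per isoform limits what a difference in share can show.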
